A study of Mus musculus with 15 samples.

Results

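The 9 genes described here mark successive steps of the oligodendrocyte lineage: Pdgfra, Cspg4, Olig1, Olig2, Sox10, Gpr17, Bcas1, Cnp and Mbp. They were chosen by name, and the members are the probes to which the platform annotation gives 1 of these symbols. Each gene had 1 probe, so 9 of the 15923 different genes named on the array are described, by 9 of 24607 targets with values; all 9 were detected on all 15 arrays. The arrays carried RNA of primary cortical neurons from foetal Swiss albino mice of gestational day 15 to 16, kept in culture until day 5. Separate groups received 100 µM kainate, an agonist of AMPA and kainate receptors, for 5 h, 15 h or 24 h (n = 3 arrays each), and the control group (n = 6) had a treatment time of 0; the design text calls it a vehicle control, while the sample labels name no agent for it. All cells shared strain, gestational age and culture day, and the study asked how gene expression shifts while kainate kills the neurons. The labels do not say whether replicates came from separate cultures, so the p-values reflect the spread of these arrays alone, which may be technical. No control matches the later times in culture, and each group sat at fixed positions on the beadchips, so neither can be told apart from the treatment.

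Oligodendrocytes, the myelinating glia of the central nervous system, arise from precursors that carry the platelet-derived growth factor receptor Pdgfra and the NG2 proteoglycan Cspg4. The basic helix-loop-helix factors Olig1 and Olig2 and the HMG-box factor Sox10 specify and maintain the lineage. Precursors that commit to differentiate switch on Gpr17, a G-protein-coupled receptor that restrains further maturation, and then Bcas1, a marker of premyelinating cells. Cnp, a phosphodiesterase of non-compact myelin, and Mbp, which compacts the myelin membrane, mark the later steps. Cultures of embryonic cortical neurons usually hold some glial precursors, and these bulk arrays cannot tell fewer cells of a type from less RNA per cell.

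The 15 arrays had median signals of 53.4 to 70.4 intensity units and detected 49.5% to 55.2% of targets, with a median of 34 or 35 beads per target. In control cells Olig1 was the brightest member, with a mean signal of 9720 units, brighter than 99.6% of targets. Bright or dim probes do not rank genes, because probes differ in how well they bind. Of 15 oligodendrocyte lineage markers on the array, 11 were detected on all arrays of each group. The mature myelin markers Mag, Mobp and Ermn were detected on no array. Of 15 neuron markers, 12 were detected on all control arrays, while Nefl and Gad2 were detected on none. Control replicates 1 and 3 differed as a pair from the remaining controls, and results that change without them are given with that value.

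Gpr17, the receptor of committed precursors (probe ILMN_3160970, gene on chromosome 18), fell at 5 h, was part of the way back at 15 h, and at 24 h passed the test against controls only under some scalings of the arrays. Its normalized log2 signal was 6.28, 6.13 and 6.2 on the arrays at 5 h, against a lowest, median and highest value of 8, 8.12 and 8.24 on the control arrays. Every 5 h array lay far below every control array, with no overlap. The fitted change was -1.91 ± 0.1 (log2, SE, n = 3 and 6), a level 3.77-fold lower than in controls, with an adjusted p of 8.2e-10 by limma with Benjamini-Hochberg adjustment over 14154 tested probes. Only 3 tested probes had a lower log2 change at this time, against a background in which 38.7% of probes passed the test in either direction. At 15 h the 3 arrays read 7.08, 7.08 and 7.22, still below all controls. There 45.3% of probes passed, and the change of Gpr17 was -0.99 ± 0.1 (adjusted p = 7.27e-07 by limma). At 24 h they read 7.92, 7.97 and 8.37 and overlapped the controls, with a change of -0.03 (95% interval -0.25 to 0.18, adjusted p = 0.825 by limma).

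The bead signals before any normalization follow the same order with a smaller recovery. Gpr17 gave 116.2, 116.4 and 126.3 intensity units at 5 h, against 264.6 to 384.3 units with a median of 323.9 on the control arrays. At 15 h the signals were 182.4, 140.4 and 213.6 units, also below every control. At 24 h they were 216, 227.3 and 278.2 units, and only the brightest of the 3 reached the lowest control. The standard error over beads was at most 4.45% of the signal on any array.

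**Figure D1:**
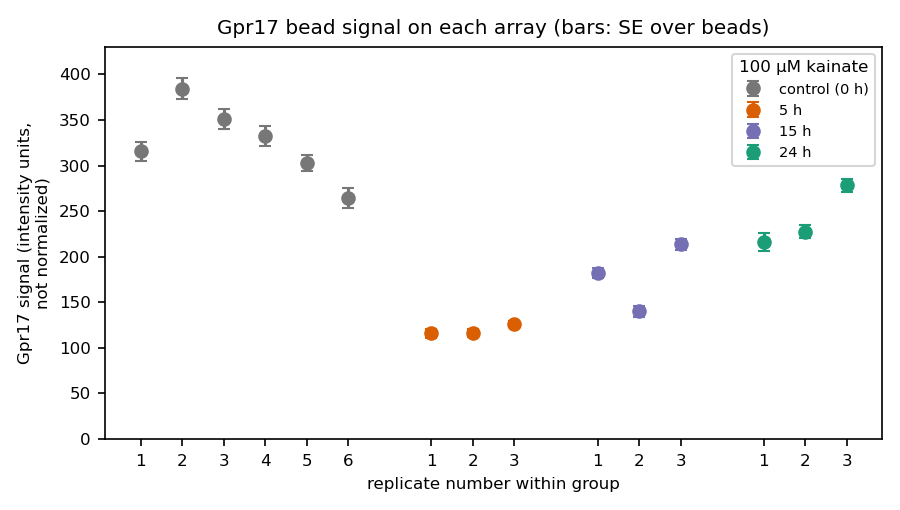
Non-normalized Gpr17 signal (intensity units, axis from 0) on each array, with replicate number within group on the horizontal axis, controls at left and rising kainate time to the right; bars are the standard error over beads. The 3 arrays at 5 h lie between 116.2 and 126.3 units, and the control arrays between 264.6 and 384.3 units.

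Whether Gpr17 was back at control level at 24 h depended on how arrays were scaled. With the medians of all targets set equal in place of quantile normalization, Gpr17 at 24 h was -0.35 ± 0.13 (adjusted p = 0.0257 by limma), and it fell by that test. The authors' deposited ratios gave -0.26 ± 0.09 (adjusted p = 0.029 by limma). Those 2 scalings moved the median of the tested probes by -0.19 and -0.11, so relative to that shift Gpr17 stood at -0.16 and -0.15. The falls at 5 h and 15 h passed under all 4 scalings, from -2 to -1.52 at 5 h and from -1.06 to -0.9 at 15 h. Within the 3 beadchips the change at 24 h was -0.21, -0.18 and 0.3.

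Between the kainate times Gpr17 rose at each step. It was higher at 15 h than at 5 h by 0.92 ± 0.12 (adjusted p = 2.28e-05 by limma), where 33% of probes passed, 17% higher and 16% lower. It was higher at 24 h than at 15 h by 0.96 ± 0.12 (adjusted p = 0.00169 by limma), where 0.608% of probes passed, 0.212% higher and 0.396% lower. With only those 2 groups fitted, the 24 h step no longer passed (adjusted p = 0.0898 by limma). At 24 h it was higher than at 5 h by 1.88 ± 0.12 (adjusted p = 1.78e-08 by limma), against a background of 35.6%, with 18.6% higher and 17% lower.

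Among the precursor markers, Olig1 and Pdgfra fell at 5 h, as Gpr17 did, while Cspg4 rose. In that comparison 1 of 9 members rose, 3 fell and 5 did not pass, against 17.9% of probes higher and 20.8% lower in the background. All arrays at 5 h lay below all controls for 3 members, as for 19.5% of probes. The shares of called probes that were higher depended on scaling: 46.3% after quantile normalization, 61.8% with equal medians of all targets and 59.4% in the authors' ratios.

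Olig1 (chr16:91269769-91271939, GRCm38.p6, next to Olig2 at chr16:91225550-91228677) read 12.64, 12.72 and 12.57 at 5 h, against 13.07, 13.2 and 13.25 (lowest, median, highest) on the control arrays. The groups did not overlap. The change was -0.55 ± 0.08 (adjusted p = 9.12e-05 by limma); with equal medians of all targets it was -0.32 and no longer passed (adjusted p = 0.0568 by limma). At 15 h Olig1 was -0.18 from controls (adjusted p = 0.0962 by limma), and at 24 h 0.16 (adjusted p = 0.138 by limma). Later Olig1 was higher again: it rose by 0.37 at 15 h against 5 h (adjusted p = 0.00747 by limma) and by 0.71 at 24 h against 5 h (adjusted p = 4.53e-05 by limma). Both steps depended on scaling. The first was 0.08 to 0.25 and did not pass under the other 3 scalings (adjusted p = 0.101 to 0.717 by limma). The second was 0.57 and passed with medians of the tested probes equal (adjusted p = 0.00111 by limma), but was 0.18 with equal medians of all targets (adjusted p = 0.354 by limma) and 0.26 in the authors' ratios (adjusted p = 0.0729 by limma).

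Pdgfra, the receptor through which platelet-derived growth factor keeps precursors dividing, read 9.89, 9.87 and 10.01 at 5 h, against 10.31, 10.43 and 10.62 on the control arrays. No 5 h array reached a control array. The change was -0.52 ± 0.1 (adjusted p = 0.00071 by limma) and it passed under all 4 scalings. Its 250 bases before the annotated start are shown because this gene fell with Gpr17, and they are compared with those of Cspg4, which did not, and of Olig2, which rose at 24 h. They are RefSeq sequence of GRCm38.p6, plus strand, written 5′ to 3′, and capitals mark an E-box (CANNTG), the kind of site that basic helix-loop-helix factors such as Olig1 and Olig2 can bind.
Pdgfra, chr5:75152001-75152250: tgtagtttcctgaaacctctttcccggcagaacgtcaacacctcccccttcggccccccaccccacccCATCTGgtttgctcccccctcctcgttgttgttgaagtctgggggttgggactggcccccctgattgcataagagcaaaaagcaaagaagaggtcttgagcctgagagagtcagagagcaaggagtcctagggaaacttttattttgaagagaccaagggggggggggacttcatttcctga
Cspg4, chr9:56864854-56865103: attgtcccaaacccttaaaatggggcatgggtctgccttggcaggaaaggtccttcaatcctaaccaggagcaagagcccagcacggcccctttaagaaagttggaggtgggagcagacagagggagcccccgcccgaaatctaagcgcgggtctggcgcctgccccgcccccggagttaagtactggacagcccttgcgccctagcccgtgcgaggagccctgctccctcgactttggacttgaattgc
Olig2, chr16:91225300-91225549: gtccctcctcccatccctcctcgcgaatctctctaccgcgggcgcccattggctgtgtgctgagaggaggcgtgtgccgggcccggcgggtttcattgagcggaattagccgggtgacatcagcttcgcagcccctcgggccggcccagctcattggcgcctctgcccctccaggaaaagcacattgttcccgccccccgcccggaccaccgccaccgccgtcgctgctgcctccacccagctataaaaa
The Pdgfra window holds 1 E-box, CATCTG, from -182 to -177 counted from the start, while the Cspg4 and Olig2 windows hold none. The window of Cnp, which passed no comparison, also holds 1 (CAGGTG, from -124 to -119). Searched on both strands, E-boxes occur in 66.2% of 32851 windows of this length. None of the 3 windows holds an AP-1 site (TGANTCA, in 6.75% of windows) or a cyclic AMP response element (TGACGTCA, in 1.55% of windows). A SOX site (ACAANG, in 36.3% of windows) occurs in the Pdgfra, Olig2 and Cnp windows and not in that of Cspg4. A match is a run of letters, and no match says only that these letters are absent from the window. The Pdgfra window lies inside the annotated gene, whose first base is at 75151322. The Cnp window (chr11:100574689-100574938) runs past the first base of its annotated gene, at 100574909.

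Cspg4 read 7.53, 7.48 and 7.3 at 5 h, against 6.9, 7.12 and 7.31 on the control arrays. The lowest 5 h array lay just under the highest control, so the groups overlap narrowly. The change was 0.32 ± 0.11 (adjusted p = 0.0284 by limma), but without control replicates 1 and 3 it was 0.23 (adjusted p = 0.0777 by limma). Without 5 h replicate 1 it was 0.27 (adjusted p = 0.123 by limma) and without 5 h replicate 2 it was 0.3 (adjusted p = 0.0967 by limma). The lineage factor Sox10 and the later genes Mbp and Cnp did not pass at 5 h, at 0.13, 0.14 and -0.14, nor did Bcas1 at 0.16 and Olig2 at 0.22.

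**Figure D2:**
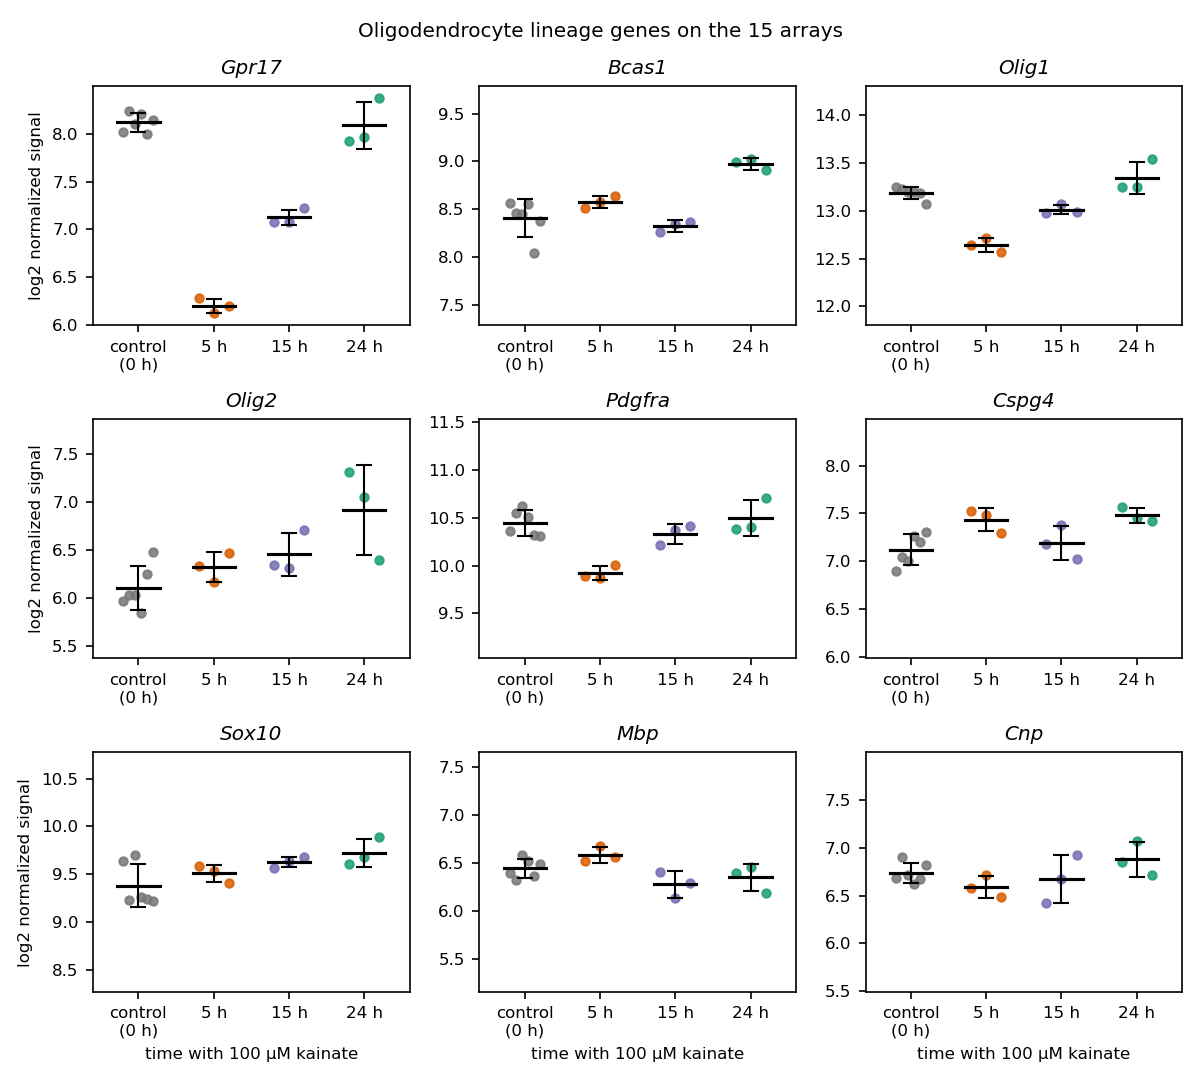
Normalized log2 signal of each gene on each of the 15 arrays, in controls (0 h) and at 5 h, 15 h and 24 h of kainate; points are arrays, long bars the mean and short bars the SD, and every panel spans the same width on the vertical axis. Gpr17 lies between 6.13 and 6.28 at 5 h and between 7.92 and 8.37 at 24 h, with controls from 8 to 8.24.

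At 15 h 1 member, Gpr17, passed the test, against a background of 45.3% of probes, 21.8% higher and 23.5% lower. It was also the 1 member whose 15 h arrays all lay below the controls, as for 21.7% of probes. The other 8 members lay between -0.18 and 0.35 of controls. Olig2 was highest among them at 0.35, with an adjusted p of 0.12 by limma. Sox10 was 0.25 higher (adjusted p = 0.102 by limma); without control replicates 1 and 3 it was 0.39 higher and rose (adjusted p = 0.00133 by limma). Those 2 control arrays had the highest Sox10 values of the group, 9.64 and 9.7, while the other 4 read 9.22 to 9.26. Leaving out the 2 highest arrays necessarily raises the change and narrows the control spread, so the smaller p-value is not separate evidence of a rise.

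At 24 h the members that passed were other than at 5 h, apart from Cspg4, which differed by 0.04 between those times. Bcas1, Olig2, Cspg4 and Sox10 rose and no member fell, so 4 of 9 passed against a background of 43% of probes, 21.1% higher and 21.9% lower. All arrays at 24 h lay above all controls for 3 members (Bcas1, Cspg4 and, by a narrow margin, Olig1), as for 16.7% of probes. Bcas1 (chr2:170343973-170427911) read 8.99, 9.03 and 8.91 at 24 h, against 8.04, 8.46 and 8.57 on the control arrays, with no overlap. Its change was 0.57 ± 0.1 (adjusted p = 0.000324 by limma). Bcas1 also rose at 24 h against 15 h, by 0.65 ± 0.12 (adjusted p = 0.0227 by limma), where 30 of 14154 probes (0.212%) were higher. That call was lost under the other 3 scalings (0.38 to 0.6, adjusted p = 0.055 to 0.176 by limma), when only the 2 groups were fitted (adjusted p = 0.0898 by limma), and in 5 of the 15 refits that left out 1 array each.

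Olig2, the factor that specifies the lineage, read 7.31, 7.05 and 6.39 at 24 h, against 5.84, 6.03 and 6.48 on the control arrays. Replicate 3 at 24 h lay within the controls and the other 2 above them. The change was 0.82 ± 0.18 (adjusted p = 0.00131 by limma), and within the 3 beadchips it was 1.31, 1.12 and 0.03. Olig2 was the 1 member that rose at 24 h under all 4 scalings, at 0.48 to 0.84. It was also the dimmest member in controls. Its mean bead signal before normalization was 128, 127 and 128 units at 5 h, 15 h and 24 h, against 101 in controls. Sox10 (chr15:79154913-79164490) read 9.61, 9.68 and 9.89 at 24 h, against 9.22, 9.25 and 9.7 on the control arrays, a change of 0.35 ± 0.12 (adjusted p = 0.0256 by limma). Cspg4 was 7.57, 7.45 and 7.42 at 24 h, above the highest control value of 7.31, a change of 0.36 ± 0.11 (adjusted p = 0.0126 by limma). Without 24 h replicate 3 Sox10 was 0.27 (adjusted p = 0.122 by limma), and without 24 h replicate 1 Cspg4 was 0.31 (adjusted p = 0.0648 by limma).

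Of the 4 rises at 24 h, those of Bcas1, Cspg4 and Sox10 were smaller under the other scalings, and Sox10 turned in direction under 1 of them. With the medians of all targets equal, Bcas1 was 0.19, Cspg4 0.09 and Sox10 -0.04, none of which passed, while Pdgfra was -0.41 and fell (adjusted p = 0.0276 by limma), although it was 0.05 after quantile normalization. In the authors' ratios Bcas1 was 0.23, Cspg4 0.12 and Sox10 0.02, and Pdgfra -0.34 again fell (adjusted p = 0.0297 by limma). With medians of the tested probes set equal, Bcas1 (0.43) and Cspg4 (0.33) passed and Sox10 (0.2) did not; that scaling was added after the data were seen. Relative to the median of the tested probes, Bcas1 stood at 0.34 to 0.38, Cspg4 at 0.23 to 0.28, Sox10 at 0.13 to 0.15 and Pdgfra at -0.23 to -0.22 under those 3 scalings. Of the probes called at 24 h, 49.1% were higher after quantile normalization, 22.4% with equal medians of all targets and 25.4% in the authors' ratios.

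**Figure D3:**
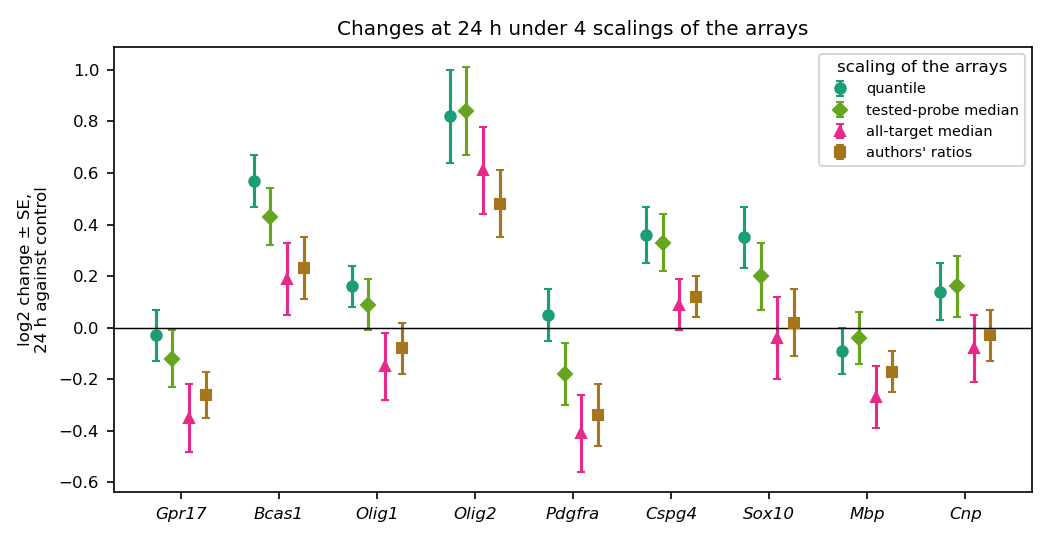
Log2 change at 24 h against control of the 9 genes under 4 scalings of the arrays, with standard errors as bars. Olig2 lies above 0 under all 4, at 0.48 to 0.84, while Pdgfra lies at 0.05 after quantile normalization and at -0.41 with the medians of all targets equal.

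After quantile normalization neither myelin gene passed the test against controls at any time; in the authors' ratios Mbp rose at 5 h, by 0.21 (adjusted p = 0.045 by limma). Mbp read 6.52, 6.68 and 6.56 at 5 h, 6.41, 6.13 and 6.29 at 15 h, and 6.4, 6.46 and 6.19 at 24 h, against 6.32, 6.44 and 6.58 on the control arrays. The groups overlapped at 15 h and 24 h, and at 5 h all but the highest array lay within the controls. Mbp fell at 15 h against 5 h by 0.31 on the log2 scale (adjusted p = 0.0358 by limma), a call lost in 5 of 15 refits that left out 1 array each. At 24 h against 5 h Mbp was -0.24 and did not pass (adjusted p = 0.0991 by limma), but it fell with equal medians of all targets (-0.58, adjusted p = 0.0023 by limma) and in the authors' ratios (-0.38, adjusted p = 0.00321 by limma). Cnp (chr11:100574909-100591875) read 6.58, 6.71 and 6.48 at 5 h, 6.42, 6.67 and 6.92 at 15 h, and 6.85, 7.07 and 6.71 at 24 h, against 6.62, 6.7 and 6.9 on the control arrays. Each kainate group overlapped the controls, although the 24 h arrays all lay above the 5 h arrays, and Cnp passed no comparison after quantile normalization. In the test for a change at any time, 61.2% of probes passed, as did 6 of the 9 members; Sox10 (adjusted p = 0.0701), Mbp (adjusted p = 0.0822) and Cnp (adjusted p = 0.242) did not, by limma's F test.

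**Figure D4:**
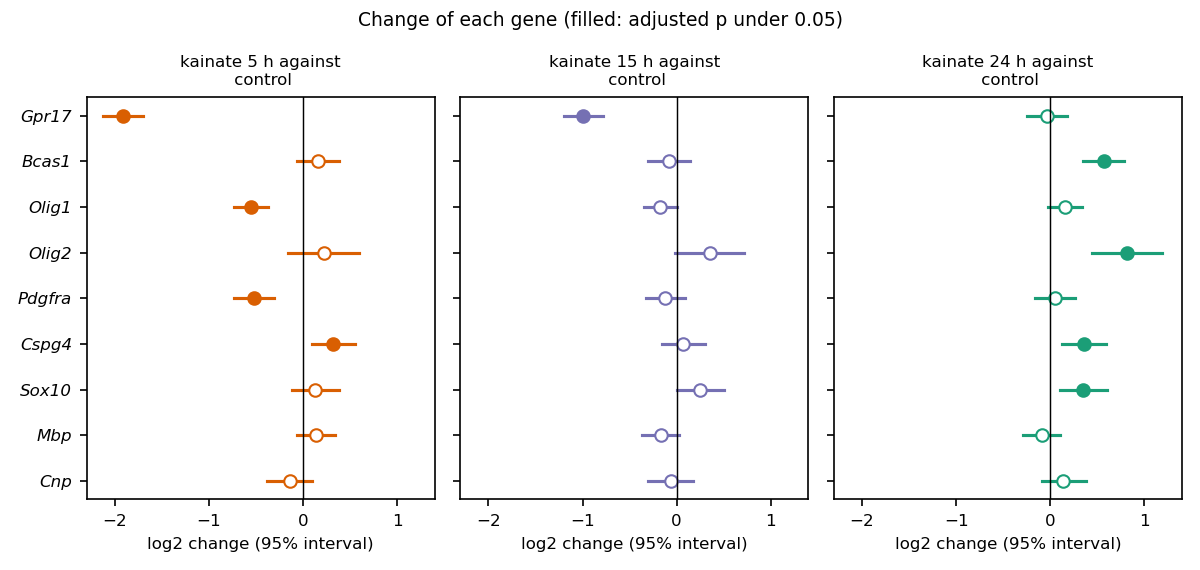
Log2 change against control with its 95% interval for each gene at 5 h, 15 h and 24 h; filled points have an adjusted p under 0.05. Gpr17 stands at -1.91 at 5 h, -0.99 at 15 h and -0.03 at 24 h, and Bcas1 at 0.57 at 24 h.

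Over the 15 arrays, Gpr17, Olig1 and Pdgfra followed each other closely, with Pearson's r of 0.93 for Gpr17 and Olig1, 0.89 for Gpr17 and Pdgfra and 0.9 for Olig1 and Pdgfra. Spearman's rho for the same pairs was 0.75, 0.78 and 0.75. Bcas1 did not follow them, at r of 0.14 with Gpr17, nor did Olig2 at -0.03. All of these share the same arrays and groups, so they only describe the time course after quantile normalization. The rises of Olig1 and Pdgfra at 24 h against 5 h depended on scaling. With equal medians of all targets Gpr17 was 1.49, Olig1 0.18 and Pdgfra 0.06, and in the authors' ratios 1.26, 0.26 and 0.14. Of these genes only Gpr17 passed there. With medians of the tested probes equal they were 1.88, 0.57 and 0.45, and all passed. Of all other tested genes, the 5 with a course most like Gpr17 were Sema5a (r = 0.965), Iqcb1 (0.951), Gga2 (0.95), Prkrip1 (0.947) and Zfp661 (0.943). The 5 most like Bcas1 were Rgs3 (r = 0.882), Trim39 (0.826), Kdm4c (0.798), Elp5 (0.789) and Lamtor4 (0.785).

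Wider lists show what other lineage genes did, with members counted where they belong to a list. Of 14 tested precursor genes, 6 of which are members, 2 rose and 4 fell at 5 h, 4 rose and 4 fell at 15 h, and 7 rose and 2 fell at 24 h. Over all probes, 17.9%, 21.8% and 21.1% were higher and 20.8%, 23.5% and 21.9% lower at these times. The second fall at 24 h, of Cacng4 (adjusted p = 0.0499 by limma), sat at the threshold, and 13 of 15 refits without 1 array left 1 gene that fell. Without 5 h replicate 1 or 2, 1 precursor gene rose at 5 h. The list's median log2 change was 0.25 at 24 h against -0.01 for all probes. Bcan, a proteoglycan of the perineuronal matrix, was 1.04 higher at 5 h and 1 higher at 24 h, and Sox8, a relative of Sox10, was 0.9 higher at 24 h. With the medians of all targets equal, and likewise in the authors' ratios, 4 precursor genes rose and 4 fell at 24 h.

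Of 11 tested genes of committed and premyelinating cells, 2 of which are members, 2 rose and 4 fell at 5 h. At 15 h 3 rose and 5 fell, and at 24 h 4 rose and 3 fell (2 rose with the medians of all targets equal). These stand beside the shares of all probes given above. The members are Gpr17, also counted in the precursor list, and Bcas1. Mycl, a Myc family factor, changed by -1.37 at 5 h, and Nkx6-2, a homeobox factor, was 0.96 higher at 24 h. Of 18 tested myelin and mature genes, 2 of which are members (Mbp and Cnp), 3 rose and 3 fell at 5 h. At both 15 h and 24 h, 7 rose and 4 fell, beside the same shares of all probes. Omg, an oligodendrocyte myelin glycoprotein that neurons also make, was 1.99 higher at 24 h, Cd9, a tetraspanin, 1.27 higher, and Tspan2, another tetraspanin, changed by -1.47. Mag, Mobp, Ermn, Opalin, Aspa and Gpr37 of that list were detected on no array.

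**Figure D5:**
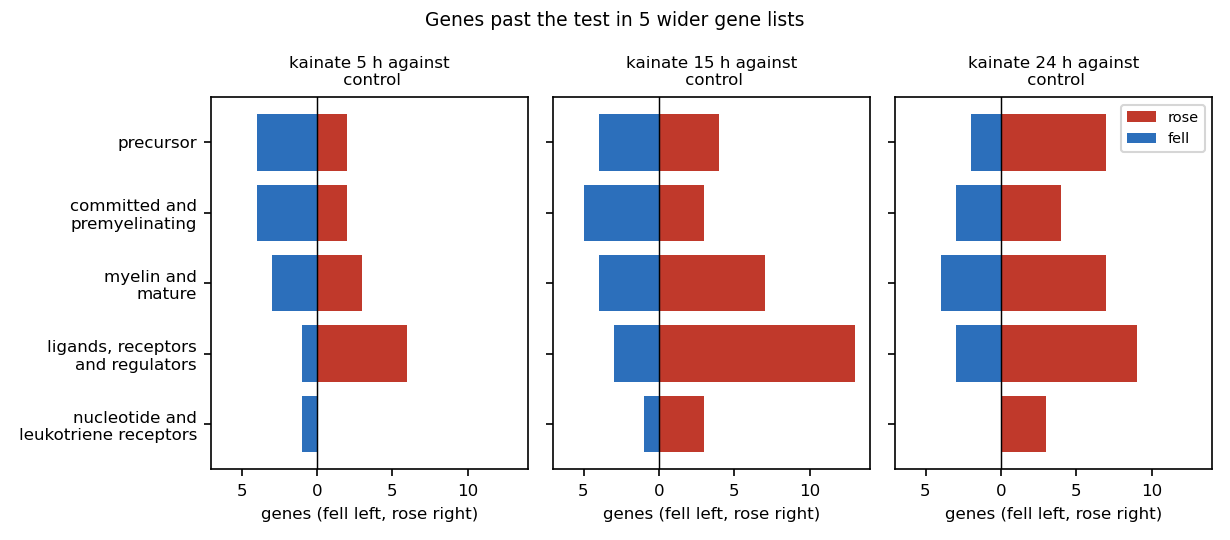
Number of genes past the test in each of 5 wider lists at 5 h, 15 h and 24 h against control; bars to the left are genes that fell and bars to the right genes that rose. In the precursor list 2 rose and 4 fell at 5 h, and 7 rose and 2 fell at 24 h.

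Among 24 tested ligands, receptors and regulators of the lineage, 6 rose and 1 fell at 5 h, 13 rose and 3 fell at 15 h, and 9 rose and 3 fell at 24 h, beside the shares of all probes given above. Without 5 h replicate 1, 3 rose at 5 h; without 15 h replicate 2, 1 fell at 15 h; and without 24 h replicate 3, 1 fell at 24 h. Tcf12, a helix-loop-helix partner of the Olig factors, was 1.04 higher at 5 h, and Fgfr2, a fibroblast growth factor receptor, 1.25 higher. Notch1, whose signalling holds precursors back from maturing, was 1.44 higher at 15 h and 1.12 higher at 24 h, and Id4, an inhibitor of helix-loop-helix factors, 1.16 higher at 24 h. The platelet-derived growth factor gene Pdgfb changed by -0.66 at 5 h.

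Gpr17 is related to receptors of extracellular nucleotides and of cysteinyl leukotrienes. The list holds receptors of these ligands whether or not they are related to Gpr17, P2rx4 and P2rx7 among them. Only 4 of its 11 genes on the array could be tested: P2ry1, P2ry2, P2ry6 and P2rx4. Cysltr1, Cysltr2, P2ry4, P2ry12, P2ry13 and P2ry14 were detected on no array. Among the 4 tested, 0 rose and 1 fell at 5 h, beside the shares of all probes given above. At 15 h 3 rose and 1 fell, and at 24 h 3 rose and 0 fell. P2ry6, a receptor for uridine diphosphate, changed by -1.17 at 5 h (adjusted p = 2.33e-06 by limma). It rose by 0.53 at 15 h against 5 h (adjusted p = 0.00978 by limma) and by 0.85 at 24 h against 15 h (adjusted p = 0.0151 by limma). Its mean log2 signal was 6.32 in controls and 6.53 at 24 h. P2ry2, a receptor for UTP and ATP, was 1.29 higher at 15 h and 1.02 higher at 24 h.

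Markers of other cells also changed over the time course. The summed normalized signal of 14 astrocyte markers at 5 h, 15 h and 24 h was 26900 to 27200, 44300 to 45800 and 37500 to 42100, against 21100 to 22200 in controls; Slc1a2 and S100b were detected on no array. The 13 neural progenitor markers share Hes1, Hes5, Notch1 and Id4 with the ligands, receptors and regulators above, and Sox9 with the astrocyte markers. Their sums at those times were 14300 to 15300, 24000 to 25200 and 20200 to 22500, against 9260 to 10300 in controls. For 15 neuron markers they were 32400 to 34900, 23200 to 24500 and 21200 to 24100, against 33000 to 38000 in controls. For 12 microglial markers they were 342 to 350, 438 to 490 and 444 to 532, against 352 to 389 in controls, with Itgam, Ptprc, P2ry12 and Fcer1g detected on no array. Undetected probes are counted in all these sums. Of 7 tested microglial genes, 4 rose and 1 fell at 15 h, and 4 rose and 0 fell at 24 h, beside the shares of all probes given above. Lyz2, the brightest microglial marker in controls, read 6.21 there on the log2 scale, 7.01 at 15 h and 7.07 at 24 h. Aif1 read 5.69, 5.32 and 5.53. For 15 endothelial, pericyte and fibroblast markers the sums were 1530 to 1580, 875 to 942 and 710 to 817, against 1350 to 1510 in controls, with Kdr, Tek, Flt1, Kcnj8, Abcc9, Anpep, Col1a2 and Lum detected on none. Dcn, a matrix proteoglycan, carries that sum and changed by -2.44 at 24 h against control, where 3 of the 6 tested genes of the list (Pdgfrb, Col1a1 and Fbln2) rose. For 15 oligodendrocyte lineage markers, a sum that Olig1 dominates, they were 8940 to 9570, 11200 to 12000 and 13500 to 16200, against 11800 to 13100 in controls. The part of these cells in the changes of the lineage genes was not tested.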

How the data were processed

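Per the labels' protocols, total RNA was labelled as biotinylated cRNA and hybridised to Illumina mouse arrays. The deposited bead signals are intensity values that the authors exported from BeadStudio 3.2.3 without normalization, per the file headers. Detection was deposited by the authors as a fraction (1 minus the p-value against negative controls), with bead numbers beside it. The authors' deposited normalized table holds a ratio to the control median on the linear scale after array-median scaling, a rule derived from the values to within 0.151%. A further 72 columns of 9 arrays that match no sample were not used. Targets were named by matching their 15 ratios to the annotated probes (24454 of 24454 matched), with symbols updated to GRCm38.p6.

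With limma 3.58.1 in R 4.3.3, signals were background-corrected from detection p-values, given an offset of 16, transformed to log2 and quantile normalized. Targets brighter than 1000 units whose detection p was above 0 were left out (1 target), a repair known from earlier work on these data. Probes with detection p below 0.05 on at least 3 arrays were tested (14154). One fit of 4 group means to 15 arrays gave 6 comparisons and an F test, two-sided, with Benjamini-Hochberg adjusted p below 0.05 as the threshold; "rose" and "fell" mean that it was passed. The fit was tested on simulated data. Members and lists were chosen with earlier results of these data known. The text names every member, up to 4 genes with the largest change among those that passed per list and comparison, and the 5 genes most like Gpr17 and Bcas1. The number of arrays limits the precision. Alternatives covered offset, scaling, dim-probe filter, blocks and left-out arrays. Figures used matplotlib 3.10.9 under Python 3.11.15.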

Additional observations from a re-analysis of the deposited data

Results flagged for a closer look

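In the control group, 2 of the 9 genes had an array far from the others by Dixon's test for 6 samples, which chance gives in about 1 in 20 groups. Bcas1 on control replicate 5 was 8.04, against 8.38 on the nearest array (gap over range 0.644, limit 0.625). Olig1 on control replicate 6 was 13.07, against 13.19 on the nearest (0.661).

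Effects of kainate differed between times, by the test of the difference itself, in 11 of 27 cases (log2 change, adjusted over all probes). Over all probes 33% passed at 15 h against 5 h, 0.608% at 24 h against 15 h and 35.6% at 24 h against 5 h. At 15 h against 5 h these were Gpr17 (0.92), Olig1 (0.37), Pdgfra (0.4) and Mbp (-0.31). At 24 h against 15 h they were Gpr17 (0.96) and Bcas1 (0.65). At 24 h against 5 h they were Gpr17 (1.88), Bcas1 (0.4), Olig1 (0.71), Olig2 (0.6) and Pdgfra (0.57). With equal medians of all targets, and in the authors' ratios, Gpr17 was the 1 member that rose in each of these comparisons. The share of called probes that were higher was 51.6% at 15 h against 5 h, 34.9% at 24 h against 15 h and 52.3% at 24 h against 5 h. With equal medians of all targets these shares were 27.1%, 2.81% and 12.4%, and in the authors' ratios 29.9%, 1.39% and 14.9%.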

How the results depend on the processing

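The fall of Gpr17 at 5 h and 15 h and of Pdgfra at 5 h passed under all alternatives that gave a test; the 24 h values depended on scaling. With equal medians of all targets, 1 member rose (Olig2 0.61) and 2 fell (Gpr17 -0.35 and Pdgfra -0.41) at 24 h against control. Sox10 was -0.04 there and did not pass. At 15 h against 5 h 1 rose and 3 fell, and at 24 h against 15 h 1 rose (391 probes called). At 24 h against 5 h 1 rose and 2 fell (Cspg4 -0.39 and Mbp -0.58), while Bcas1 was -0.09 and did not pass. In the authors' ratios 2 members (Cspg4 and Mbp) rose at 5 h against control, 1 rose and 2 fell at 24 h (Gpr17 -0.26, Pdgfra -0.34), 1 rose and 3 fell at 15 h against 5 h, 1 rose at 24 h against 15 h (505 probes), and 1 rose and 2 fell at 24 h against 5 h (Cspg4 -0.27). With medians of the tested probes equal, 1 rose and 0 fell at 15 h against 5 h (Mbp -0.28, adjusted p = 0.0655 by limma), and 1 rose at 24 h against 15 h (44 probes). The cause was not tested.

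The 24 h against 15 h count was 86 probes; it was 144 with an offset of 50, 139 with no filter, 50 with the replicate block by label number, 2 with only the 2 groups (0 members rose), 238 without control replicates 1 and 3, 295 with those and the 5 h arrays as a block, and 7 to 640 when 1 array was left out. With only the 2 groups, 2 members fell at 15 h against 5 h. Without control replicates 1 and 3, or with the block of those and the 5 h arrays, 1 member (Sox10) rose at 15 h against control. Label numbers did not meet the limit for pairing, a correlation over 0.1 in every pair: deviations of same-numbered arrays correlated at -0.15 to 0.3, with 5 of 18 pairs over 0.1. Arrays of a beadchip correlated at -0.28 to 0.32, with 10 of 27 pairs over 0.1. With the replicate block by label number 0 members fell at 15 h against 5 h and Sox10 at 24 h was 0.21 (adjusted p = 0.219 by limma). Within single beadchips, which hold no test, Gpr17 at 24 h was -0.21, -0.18 and 0.3, and at 15 h -0.85 on beadchip 3. Leaving out 1 array gave 0 to 1 members that rose at 5 h, 0 to 1 that rose and 1 to 2 that fell at 15 h against control, 0 to 2 that fell at 15 h against 5 h, 1 to 3 that rose at 24 h against 15 h, and 3 to 5 at 24 h against 5 h.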
